A study of Mus musculus with 6 samples.

Results

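Neuropilins are membrane co-receptors, plexins are the signalling receptors beside them, and semaphorins are their ligands. Measured here were the 2 neuropilins Nrp1 and Nrp2, the 4 plexins Plxna1, Plxnb2, Plxnc1 and Plxnd1, and the 3 class 4 semaphorins Sema4a, Sema4b and Sema4d. These 9 genes of 18194 were selected on the intensity of Nrp1, which is lower in one group of leukemias, and the other 8 belong to its receptor and ligand families. All 25 probe sets annotated to 1 of the 9 symbols were used, of 34958 probe sets with a single symbol. The choice rested on the comparison of the 2 groups, so differences between the groups are given for the members as a description, without a test.

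The arrays held RNA of 6 mouse leukemias of the C57BL/6 strain. The 3 labelled Runx1-KO came from bone marrow with excised Runx1, and the 3 labelled Control from bone marrow with intact Runx1. Both groups had been transduced with MLL-ENL, a leukemogenic fusion of a histone methyltransferase with a subunit of a transcription elongation complex, and grown in congenic recipients until these were moribund. The sources used here do not state how Runx1 was excised, the age or sex of donors and recipients, or any sorting that would remove host cells.

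Class 3 semaphorins are secreted, and most need a neuropilin to hold them to a class A plexin. Class 4 semaphorins sit in the membrane and bind B or D plexins, Cd72 or other proteins directly. The plexin then acts inside the cell on small GTPases and on cytoskeletal proteins. Nrp1 also binds VEGF-A in endothelium, and in mouse blood cells it is known from regulatory T cells and plasmacytoid dendritic cells. Class 4 semaphorins are known from lymphocytes, dendritic cells and other leukocytes.

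Nrp1 lies on chromosome 8 (128358591 to 128505476) and Nrp2 on chromosome 1 (62703317 to 62818692) of GRCm38.p6, the build of the RefSeq table used for names, not one stated for the arrays. The windows from 250 bases before to 50 bases after an annotated transcript start of each (for Nrp1 inside the gene interval) are shown because Nrp1 and its paralog Nrp2 gave different values. They are RefSeq sequences of GRCm38.p6, both on the plus strand, at chr8:128358823-128359122 and chr1:62703067-62703366. Capitals mark the GC box, GGGCGG or its reverse complement CCGCCC, the binding motif of SP family factors.
Nrp1: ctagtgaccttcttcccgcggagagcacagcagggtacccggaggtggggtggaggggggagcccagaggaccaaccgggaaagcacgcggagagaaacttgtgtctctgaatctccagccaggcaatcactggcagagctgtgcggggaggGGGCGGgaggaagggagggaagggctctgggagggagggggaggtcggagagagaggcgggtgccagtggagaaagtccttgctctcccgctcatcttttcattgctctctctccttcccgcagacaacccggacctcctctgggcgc
Nrp2: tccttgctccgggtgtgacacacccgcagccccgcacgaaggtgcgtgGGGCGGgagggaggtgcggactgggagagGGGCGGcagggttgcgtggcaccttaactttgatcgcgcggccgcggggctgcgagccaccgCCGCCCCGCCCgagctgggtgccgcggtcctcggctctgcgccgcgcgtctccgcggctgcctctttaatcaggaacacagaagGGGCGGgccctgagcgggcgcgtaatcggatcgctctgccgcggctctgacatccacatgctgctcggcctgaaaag

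The Nrp1 window held 1 GC box and the Nrp2 window 5, of which 2 overlap. Bases G and C made up 64.0% of the Nrp1 window and 70.7% of the Nrp2 window. Any bearing of the windows on the array values was not tested. Of the 15 member windows in the RefSeq promoter table, 12 held the motif, against 35.7% of all 32851 windows of that length. The 15 windows belong to 8 of the 9 members and some of 1 gene overlap each other. The RUNX hexamers TGTGGT and TGCGGT, searched on both strands, were in 3 of the 15 windows, against 22.4% of all windows. Those were 1 window each of Sema4a (TGCGGT at position -35 from the start), Sema4b (TGCGGT at position 41) and Sema4d (ACCACA, the reverse complement of TGTGGT, at position -130). Neither neuropilin window held these letters, which says nothing of sites elsewhere.

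The array values are linear intensities, and levels of different probe sets cannot be set against each other. For each array, the brightest of 27 bacterial spike-in probe sets, which have no target in the RNA, set a background limit of 17.0, 19.6 and 18.6 in Runx1-KO 1, 2 and 3 and 17.0, 14.1 and 22.5 in Control 1, 2 and 3. Of the 25 member probe sets, 16 lay above the limit on all 6 arrays and 2, both of Plxna1, on none. Median intensities were 24.4 to 26.0, and Gapdh, read at its 3' over its 5' end as a sign of RNA quality, gave 7.10 for Runx1-KO 1 and 2.67 to 3.02 for the remaining 5 arrays. Runx1 itself was not lost. Its brightest probe set read 1128, 1573 and 1629 in the arrays labelled Runx1-KO against 680.3, 1021 and 850.0 in Control. The sources used here do not place its probe sets relative to the excised part, so Runx1 does not check the labels, and directions are those of the arrays as labelled. Xist read 1624, 1857 and 1895 in Runx1-KO and 330.8, 85.4 and 25.3 in Control, while the Y-linked Eif2s3y read 5.29, 6.31 and 3.98 in Runx1-KO and 683.6, 638.0 and 706.7 in Control. Sex-linked signal and genotype label therefore cannot be told apart for any gene below.

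Nrp1, the co-receptor for class 3 semaphorins and VEGF-A, had an intensity of 32.0, 19.9 and 25.3 in Runx1-KO 1, 2 and 3 on its brightest probe set (1448943_at). In Control 1, 2 and 3 the same probe set read 211.2, 181.5 and 220.8. All 3 Control leukemias were high and all 3 labelled Runx1-KO low, with Runx1-KO 2 barely above its background limit. The mean log2 level was 4.66 ± 0.34 in Runx1-KO and 7.67 ± 0.15 in Control (SD, n = 3 each). The log2 difference of -3.01 ± 0.24 (moderated SE) is an 8.07-fold lower level in Runx1-KO. In bulk samples, fewer cells with Nrp1 and less Nrp1 RNA per cell cannot be told apart.

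A second Nrp1 probe set (1448944_at) read 8.67, 16.4 and 11.2 in Runx1-KO, below the limit on each array, against 118.5, 106.9 and 154.4 in Control. With the dim arrays raised to their limits, that is at least 6.81-fold lower. Another (1418084_at) read 20.1, 19.8 and 14.6 in Runx1-KO against 66.5, 83.0 and 93.8 in Control, at least 4.12-fold lower. Runx1-KO 1 and 2 lay above the limit there and Runx1-KO 3 below it. These 3 probe sets are annotated to the same cDNA record, so they share a transcript source and are no separate replicates. The fourth (1457198_at), annotated to another record, read 14.7, 24.6 and 27.2 in Runx1-KO and 14.5, 18.9 and 16.7 in Control. It was near or below the limit everywhere, its groups overlapped, and it did not show the difference.

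Nrp2, the paralog that prefers Sema3f and VEGF-C, did not share the pattern. Its brightest probe set (1435349_at) read 347.9, 230.3 and 342.6 in Runx1-KO against 350.9, 321.0 and 274.6 in Control, a log2 difference of -0.06 ± 0.25 with groups that overlapped. On a second (1426528_at) it read 339.3, 263.3 and 269.5 in Runx1-KO against 200.8, 237.2 and 192.7 in Control, 1.38-fold higher with no overlap. One more (1456778_at) was 1.18-fold higher, at 87.8, 79.7 and 85.9 in Runx1-KO against 71.0, 78.1 and 66.7 in Control, also with no overlap. The Nrp2 probe sets thus disagreed on a rise, and none of the 3 that lay above background on all arrays was lower by more than its SE. The fourth (1447343_at) read 6.57, 22.1 and 27.1 in Runx1-KO and 16.6, 12.7 and 1.66 in Control, around the limit. Of the 25 member probe sets, 3 were lower without overlap, all of Nrp1, and 2 were higher without overlap, both of Nrp2. Over all probe sets 11.8% were lower and 8.64% higher without overlap.

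**Figure D1:**
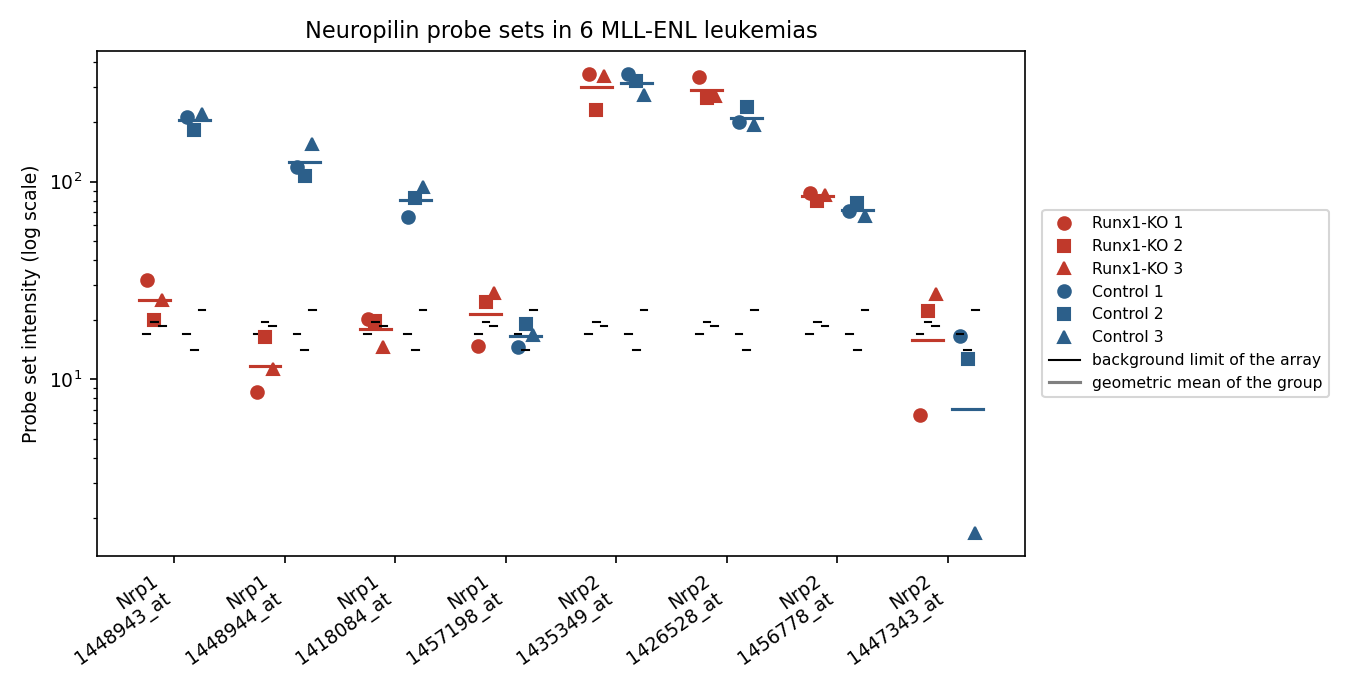
Intensity (log axis) of the 4 Nrp1 and 4 Nrp2 probe sets, Runx1-KO arrays left of Control arrays, with the geometric mean of each group and the background limit of each array as short black bars. On 3 Nrp1 probe sets every Runx1-KO point lies below every Control point, on the brightest at 19.9 to 32.0 against 181.5 to 220.8.

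Among the plexins, Plxna1, the receptor that signals for Sema3a together with Nrp1, gave no signal above background. Its brighter probe set (1428623_at) read 1, 11.8 and 4.93 in Runx1-KO and 11.3, 12.15 and 7.475 in Control, all under the limits, so no fold is stated. The dimmer one stayed at or under 3.91 in Runx1-KO and 6.70 in Control. Plxnb2, a receptor of class 4 semaphorins and of angiogenin, was dim. It read 15.8, 30.7 and 21.7 in Runx1-KO against 24.5, 18.02 and 44.5 in Control, a log2 difference of -0.30 ± 0.41. It was above the limit on 2 of 3 arrays labelled Runx1-KO and on 3 of 3 Control arrays, and the groups overlapped.

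Plxnc1, the receptor of the membrane-anchored Sema7a, was well measured and did not separate the groups. It read 456.2, 272.3 and 315.4 in Runx1-KO against 374.2, 444.0 and 233.6 in Control, a log2 difference of 0.00 ± 0.33. Its 6 probe sets had log2 differences of -0.56 to 0.42, and the groups overlapped in all of them. The lowest (1423213_at) read 79.8, 30.5 and 52.0 in Runx1-KO against 69.3, 93.1 and 62.7 in Control, and the highest (1443433_at), near background, 33.4, 11.1 and 20.3 in Runx1-KO against 14.1, 30.0 and 7.44 in Control. Of the 6, 4 are annotated to 1 cDNA record and 2 to another. They ordered the leukemias of each group alike: Runx1-KO 1 was the highest of its group and Control 2 the highest and Control 3 the lowest of theirs in 6 of 6 probe sets. Plxnd1, the receptor of Sema3e that also binds Sema4a, read 99.3, 195.0 and 100.2 in Runx1-KO against 54.4, 128.6 and 96.3 in Control. That is a log2 difference of 0.51 ± 0.42, with overlap and with Runx1-KO 2 highest. It was measured by 1 probe set.

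The class 4 semaphorins were above background in all 6 leukemias. Sema4a, a T cell co-stimulator, read 363.2, 373.1 and 198.6 in Runx1-KO against 252.1, 173.7 and 254.7 in Control, a log2 difference of 0.42 ± 0.33. Its second probe set read 188.3, 225.9 and 124.2 in Runx1-KO against 167.3, 112.2 and 148.5 in Control, a difference of 0.31 ± 0.30. Runx1-KO 1 and 2 lay above all Control arrays on both, and Runx1-KO 3 lay within the Control range.

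Sema4b, another membrane-bound ligand, read 147.4, 302.3 and 174.3 in Runx1-KO against 175.4, 134.2 and 86.0 in Control, a log2 difference of 0.65 ± 0.38. Runx1-KO 2 stood well above the other 5 arrays, also on the second probe set, where it read 212.2, beside 68.5 and 68.1 in Runx1-KO 1 and 3 and 110.6, 68.8 and 39.0 in Control. Without Runx1-KO 2 the log2 difference of Sema4b was 0.34 ± 0.35.

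Sema4d, known as CD100, the ligand of Plxnb1 and Cd72, read 236.8, 545.1 and 306.1 in Runx1-KO against 373.1, 210.5 and 400.6 in Control. The log2 difference was 0.11 ± 0.40, and its other probe sets gave -0.01 ± 0.43 and -0.25 ± 0.28. The middle one read 26.9, 51.3 and 38.6 in Runx1-KO against 51.2, 21.2 and 49.7 in Control, and the dimmest lay near the limits at 15.8 to 26.8 in Runx1-KO and 22.1 to 31.1 in Control. Runx1-KO 2 was again the highest and Control 2 the lowest of the 6 arrays on the 2 brighter probe sets, and the groups overlapped on all 3.

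**Figure D2:**
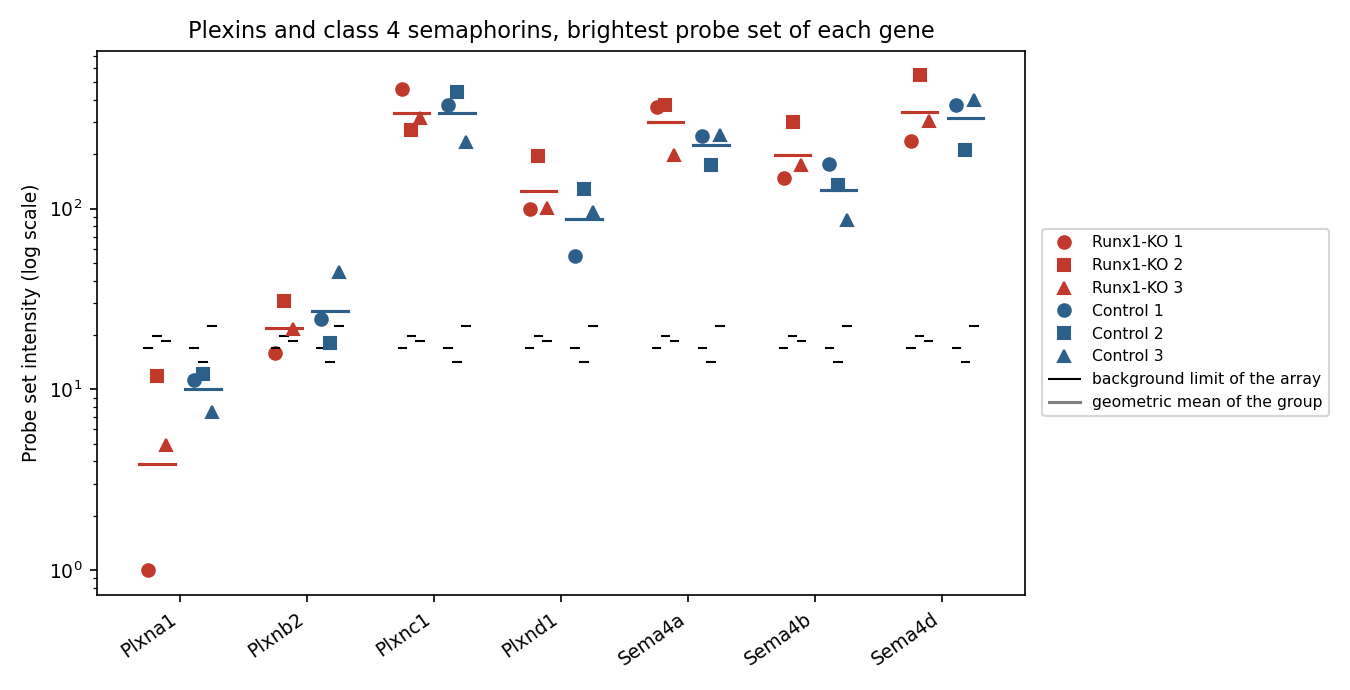
Intensity (log axis) of the brightest probe set of each plexin and class 4 semaphorin, Runx1-KO arrays left of Control arrays, with group geometric means and the background limit of each array. The groups overlap in all 7 genes, Plxna1 lies under the limits, and Runx1-KO 2 (red squares) is the highest of the 6 arrays in Plxnd1, Sema4a, Sema4b and Sema4d.

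Runx1-KO 2 was the highest array for 4 of the 7 members above background on all 6 arrays, Plxnd1, Sema4a, Sema4b and Sema4d, and the highest for 21.0% of the 9703 genes above background everywhere. It was the lowest array for Nrp1 and Nrp2, as for 30.3% of those genes. The highest level of a gene over its lowest was 11.1 for Nrp1 and 1.52 to 3.58 for the other 6 of these members. Over those 9703 genes the median was 1.77 and the upper quartile 2.32. Nrp1 chose the list by the gap between its groups, so its first place among the 7 is no result. Of the other 6, Sema4b (3.52) and Plxnd1 (3.58) varied most, each with Runx1-KO 2 highest and a Control array lowest.

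On the brightest probe sets, the groups did not overlap in 1 of the 9 members, Nrp1, where over all genes 11.7% were lower and 9.17% higher without overlap. Nrp1 chose the list, so nothing is read from that count. The median log2 difference of the 9 members was 0.00, and that of all genes was -0.01.

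**Figure D3:**
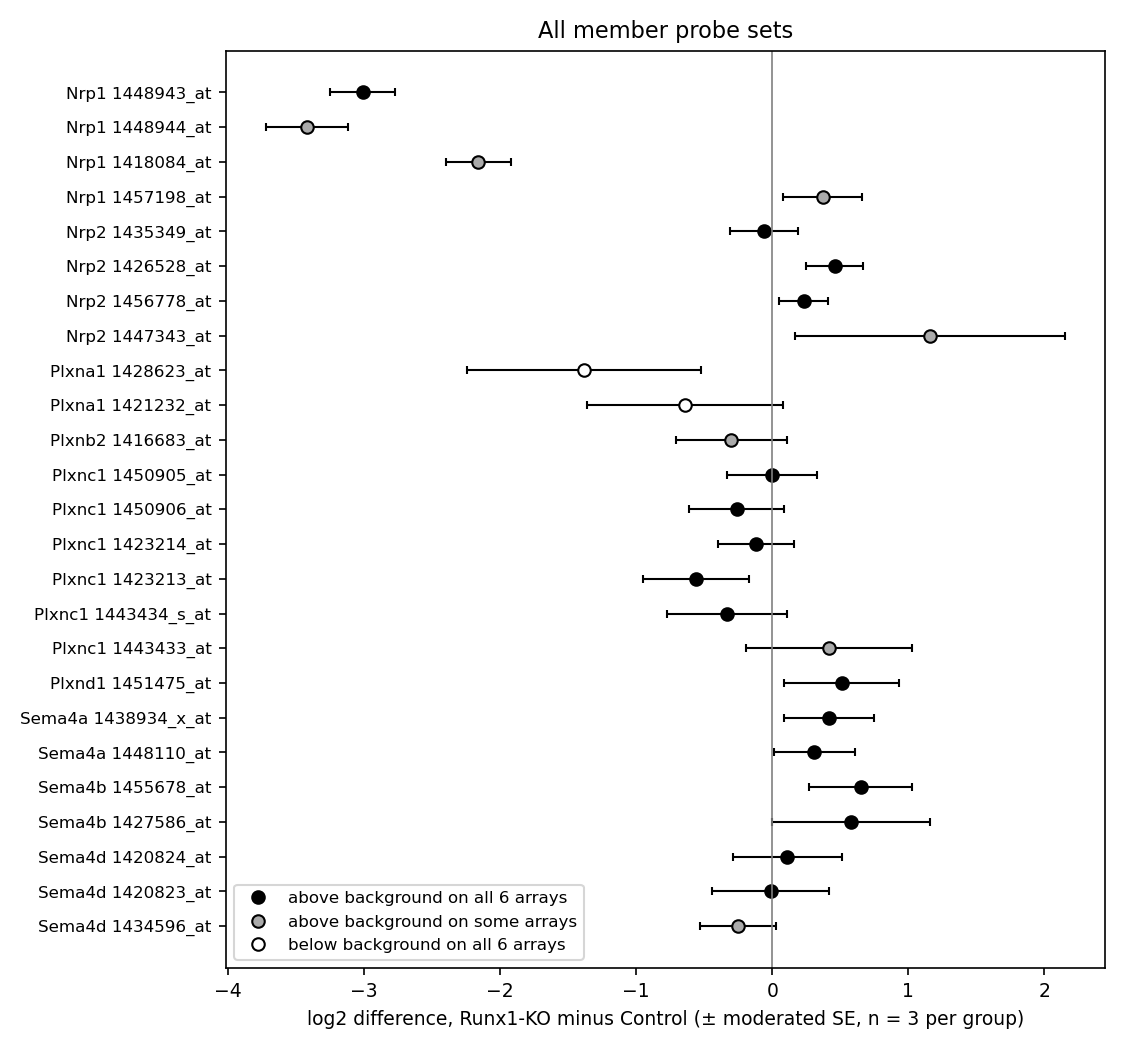
Log2 difference, Runx1-KO minus Control, with its moderated SE (n = 3 per group) for all 25 member probe sets, filled by how many of the 6 arrays lay above background. The Nrp1 probe sets of 1 cDNA record lie at -2.16 to -3.42, and every other probe set above background on all 6 arrays lies between -0.56 and 0.65.

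The genes whose values over the 6 arrays were most like those of Nrp1 were found by the root mean square difference of log2 values centred on each gene's mean, among 10226 genes above background on all Control arrays. That filter holds only the Control values above background, and of the 5 nearest genes only F7, coagulation factor VII (distance 0.27), was above background on all 6 arrays. F7 read 126.2, 94.4 and 91.1 in Runx1-KO against 608.1, 777.4 and 647.4 in Control. The other 4 were below background on all 3 arrays labelled Runx1-KO, so their distances and their order are not measured and each difference is a bound. Uty, a Y-linked histone demethylase gene, read 5.08, 4.135 and 5.555 in Runx1-KO against 38.1, 38.4 and 44.5 in Control, at least 2.19-fold lower. The bounds were at least 3.86-fold lower for Dguok, a mitochondrial nucleoside kinase, and, for Aspa, which cleaves N-acetylaspartate, at least 3.88-fold lower. For the sodium/proton exchanger gene Slc9a7 the bound was at least 1.58-fold lower. The 6 other members above background on all arrays lay 1.49 to 1.93 from Nrp1. These 5 genes were picked for likeness to a gene that separates the groups, so their own separation is no result.

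**Figure D4:**
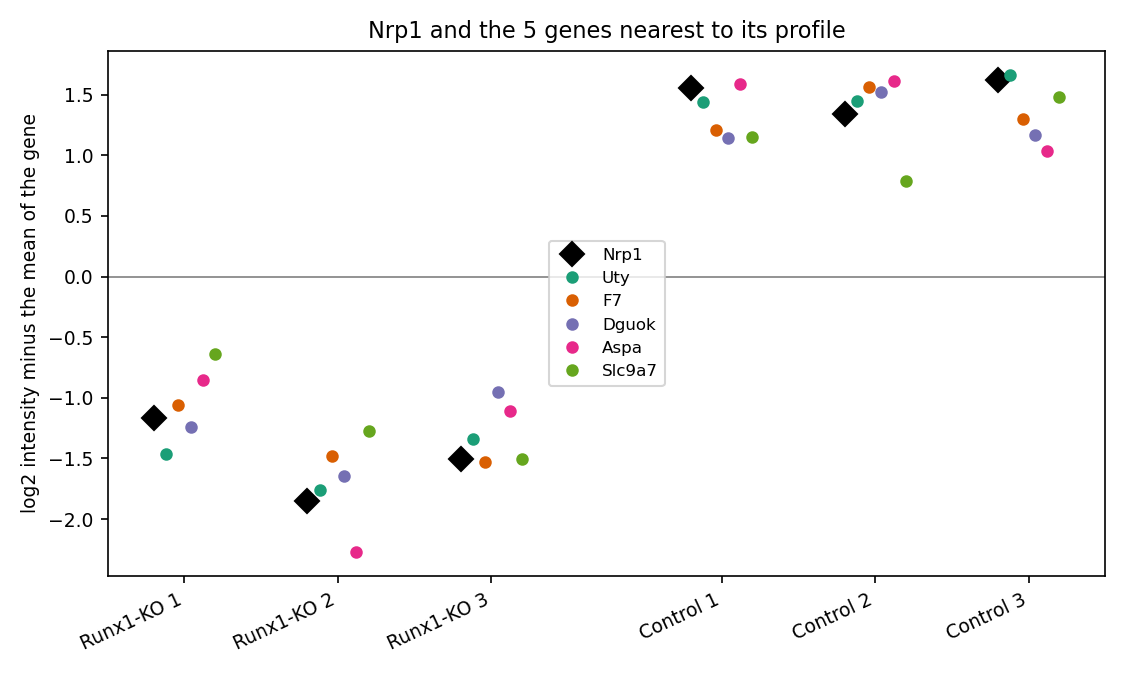
Log2 intensity of Nrp1 (diamonds) and of the 5 nearest genes, each minus its mean over the 6 arrays, in Runx1-KO arrays left of Control arrays. All 6 genes are below their mean in every Runx1-KO array and above it in every Control array. Apart from Nrp1 and F7, the Runx1-KO points lie below background, so their depth is not measured.

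Markers of cells that carry Nrp1 in healthy tissue, and of leukemia and other blood cells, were read beside it. The leukemia markers Ptprc, Itgam, Mpo, Elane, Spi1, Cebpa, Hoxa9 and Meis1 were above background on all arrays, 8 of 8. Of 7 endothelial markers, 5 were below background on all 6 arrays (Cdh5, Kdr, Tek, Emcn and Esam), and the summed list was 100.3 to 170.9 in Runx1-KO and 102.5 to 217.1 in Control. Of 7 plasmacytoid dendritic cell markers, 5 were above background on all arrays, but the defining marker Siglech was below it on all 6, and the sum was 614.8 to 824.1 in Runx1-KO and 559.2 to 1028 in Control.

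Summed T cell and macrophage markers were low in the same leukemias as Nrp1. The brightest probe sets of a list carry its sum, so a sum is no measure of cell content. Foxp3 was the brightest T cell marker, and Mpeg1 and Csf1r were the brightest macrophage markers. The 6 measured T cell markers summed to 105.5 to 145.0 in Runx1-KO and 208.9 to 257.7 in Control. Foxp3, the factor of regulatory T cells, read 50.3, 64.9 and 89.0 in Runx1-KO against 126.1, 164.1 and 112.0 in Control, while Cd3e, Cd3g and Cd5 lay below background in all 3 leukemias labelled Runx1-KO and exceeded it in 2 of the 3 Control leukemias. The other 2 measured T cell markers overlapped between the groups: Ctla4 read 27.9, 56.1 and 26.4 in Runx1-KO against 36.3, 26.7 and 33.6 in Control, and Il2ra was above background in Control 1 alone. The 6 macrophage markers summed to 2273 to 2383 in Runx1-KO and 3928 to 5123 in Control, with 5 of 6 above background on all arrays and C1qa on none. The 7 mature neutrophil markers had sums of 4365 to 5636 in Runx1-KO and 1521 to 2202 in Control. By limma over all genes, 0 of the T cell, macrophage and neutrophil markers passed an adjusted p under 0.05. Of all genes 0.0879% did. At an unadjusted p under 0.05, 4 of 6 T cell and 5 of 6 macrophage markers were lower in Runx1-KO. By the same measure 7 of 7 neutrophil markers were higher, against 12.6% of all genes in either direction. The lists were chosen with earlier results of these data known. The part of these cells in the Nrp1 values was not tested. The 4 measured B cell markers summed to 129.6 to 247.0 in Runx1-KO and 145.0 to 208.3 in Control. The 5 measured erythroid markers summed to 4608 in Control 1 and 66.3 to 207.7 in the other arrays. Without Control 1 the Nrp1 log2 difference was -2.99 ± 0.29, and the part of B cells and erythroid cells in it was not tested.

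The other genes of the pathway, 62 in 7 lists of which 61 were measured, were tested by limma over all genes. None passed an adjusted p under 0.05, which 16 of 18194 genes, or 0.0879%, did. At an unadjusted p under 0.05, 5 of the 61 were higher and 4 lower in Runx1-KO, against 12.6% of all genes in either direction. Of the 5 higher genes, Vegfa alone was above background on any array. Without overlap, the same 5 were higher and 6 lower, shares near those over all genes given above. The median log2 difference of the 61 was 0.03, and 18 were below background on all 6 arrays.

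Class 3 semaphorins, most of which bind neuropilins, were mostly below background. Of 7 class 3 semaphorins, 6 were below background on all 6 arrays and 0 passed. Sema3a had the lowest p (0.68 ± 0.21, adjusted p = 0.305) but was itself below background on all 6 arrays, so no fold is stated. Of the 3 other class 4 semaphorins 0 passed, with the lowest p in Sema4c, a ligand of Plxnb2, at 186.2, 253.9 and 273.3 in Runx1-KO against 180.7, 240.5 and 180.9 in Control (adjusted p = 0.719). Of 7 semaphorins of classes 5 to 7 none passed, and the lowest p was that of Sema5b, below background throughout (adjusted p = 0.576).

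Of the neuropilin ligands listed, Vegfa alone was above background on all 6 arrays. It read 695.9, 695.4 and 810.3 in Runx1-KO against 363.7, 351.9 and 320.7 in Control. The groups did not overlap, the level was 2.12-fold higher (1.09 ± 0.18), and a second probe set was 2.28-fold higher, but Vegfa did not pass (adjusted p = 0.142). Over 15 alternatives its adjusted p ran from 0.0219 to 0.381 and 3 passed, those with an offset of 16 before the log, with a variance trend and with array weights. Kdr, the VEGF receptor that Nrp1 assists, was below background on all arrays, while Flt1, the other VEGF-A receptor, read 46.2, 98.1 and 53.0 in Runx1-KO against 70.3, 99.9 and 70.6 in Control (adjusted p = 0.714). Of the 6 genes of that list 0 passed.

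Of 5 other plexins 0 passed, with the lowest p in Plxnb1, the receptor of Sema4d, at 38.6, 53.9 and 50.5 in Runx1-KO against 43.4, 34.6 and 38.8 in Control (0.29 ± 0.21, adjusted p = 0.617). Its dimmer probe set had the opposite sign. Of 10 further receptors and co-receptors 0 passed. Itgb1, the integrin chain of the Sema7a receptor, had the lowest p, at 288.9, 521.5 and 368.8 in Runx1-KO against 671.0, 513.0 and 569.4 in Control (-0.61 ± 0.27, adjusted p = 0.419).

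Inside the cell, the effector list held the largest difference of the pathway genes. Dpysl2 encodes CRMP2, a tubulin-binding protein that relays Sema3a signals from Nrp1 and Plxna1 in neurons. It read 94.1, 101.5 and 69.5 in Runx1-KO against 451.2, 337.3 and 374.0 in Control. The groups did not overlap and the level was 4.41-fold lower (-2.14 ± 0.23), yet it did not pass (adjusted p = 0.0593). Its second probe set was 3.32-fold lower, at 56.2, 67.2 and 48.5 in Runx1-KO against 203.0, 198.0 and 166.8 in Control. Over 15 alternatives its adjusted p ran from 0.00954 to 0.337 and it passed under 5, those with the offset, median centring, a filter on dim genes, the variance trend and array weights.

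Mical2, an actin-oxidising enzyme of the family that acts below plexins, was chosen for mention after its values were seen. It read 15.6, 17.97 and 13.7 in Runx1-KO, below background, against 37.2, 41.4 and 35.3 in Control, at least 2.06-fold lower (adjusted p = 0.127). Of the 23 measured effectors 0 passed, and 15 were above background on all arrays. The GTPases Rac1, Rhoa, Rap1a and Rap1b and the actin-severing cofilin Cfl1, which plexin signals reach, differed by -0.11 to 0.07 on the log2 scale. By limma at an unadjusted p under 0.05, 4 of the 23 were lower and 1 higher, against 12.6% of all genes in either direction. The lower were Dpysl2, Mical2, the GTPase gene Rnd1 (-0.75 ± 0.28, adjusted p = 0.356) and Arhgef11 (-0.58 ± 0.19, adjusted p = 0.324). The higher was Mical3, below background on all arrays. Rras, another GTPase gene, was at least 1.84-fold lower, with overlap (adjusted p = 0.554).

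**Figure D5:**
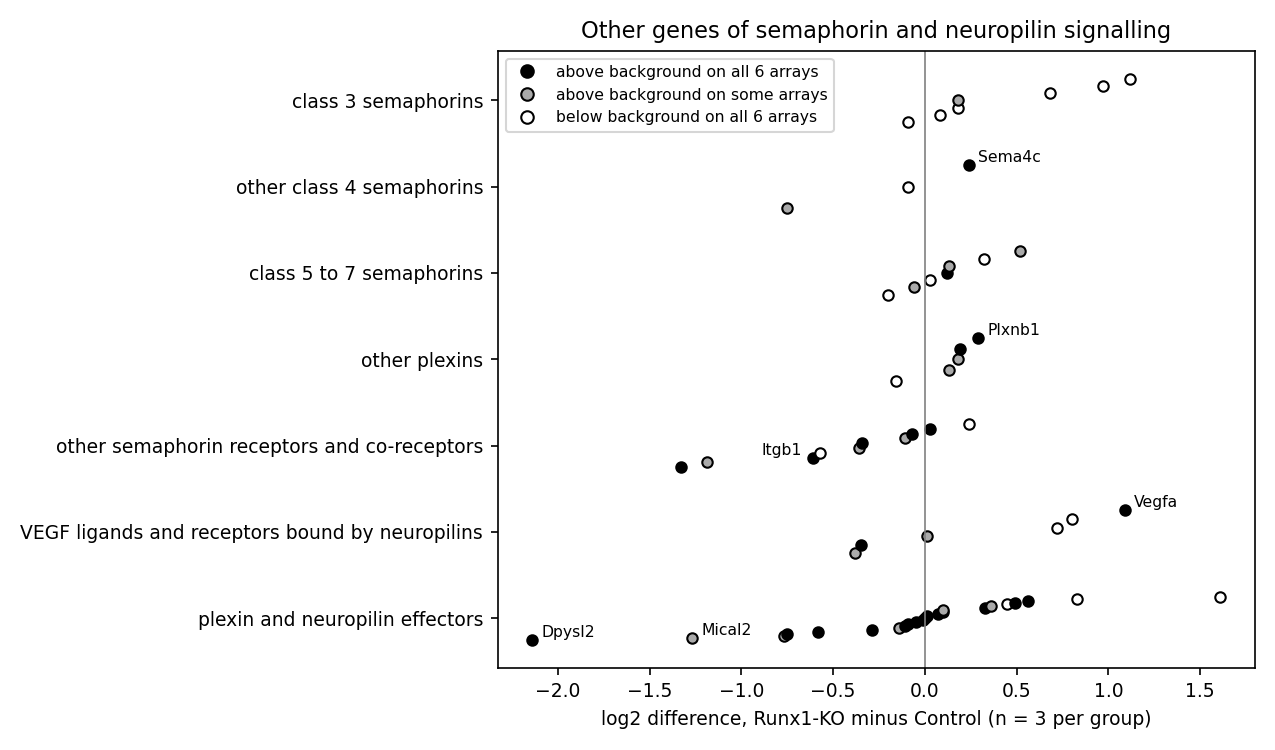
Log2 difference, Runx1-KO minus Control (n = 3 per group), of the 61 measured pathway genes outside the members, by list, filled by how many of the 6 arrays lay above background. Dpysl2 (-2.14) and Vegfa (1.09) stand apart among genes above background on all arrays, as does Itga1 (-1.33), whose groups overlap, and none of the 61 passed an adjusted p under 0.05.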

How the data were processed

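The deposited table held linear probe set intensity values of 6 one-colour Affymetrix mouse arrays, 45101 probe sets each, with a floor of 1 (1 value lay below it and was raised). The way the authors summarised and normalized the probes is not stated in the sources used here. Of the probe sets, 34958 had 1 gene symbol in the platform annotation, 932 several and 9211 none, and only the first were used. All 25 member probe sets matched their RefSeq gene by Entrez identifier.

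Intensities were taken to log2. For each gene the probe set with the highest mean log2 value stood for it (18194 genes). Groups were compared with limma 3.58.1 (lmFit, eBayes, no covariate, two-sided) in R 4.3.3 with Benjamini-Hochberg adjustment over all genes at 0.05. A fit over all 34958 probe sets gave single probe sets, and the fit was checked on simulated data. Arrays below their background limit were raised to it for "at least" folds. The number of arrays limits the precision. The titles call the replicates biological and the design text calls the leukemias independent.

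The members, gene lists and tests were chosen with earlier results of these data known. Named were all members, Runx1, from each pathway list the genes past the threshold or else that of lowest p, and the 5 genes nearest to Nrp1. Mical2, Itga1, Rac1, Rhoa, Rap1a, Rap1b, Cfl1, Kdr, Flt1 and the marker genes given singly were named after their values were seen. The same holds for Mical3, Rnd1, Rras and Arhgef11.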

Additional observations from a re-analysis of the deposited data

How the results depend on the processing

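The Nrp1 difference kept its sign in 15 of 15 alternatives, from -3.18 to -2.06 on the log2 scale. It was -2.41 with an offset of 16 before the log and -2.06 as the mean of its 4 probe sets, and -3.18 to -2.84 with any 1 array left out. With the replicate block it was -3.01 ± 0.23, where the balanced design leaves the difference itself unchanged. Nrp1 was chosen for this difference, so its kept sign is no result. Its groups do not overlap on the brightest probe set, so leaving out an array could not reverse the sign. Nrp2 was 0.45 as the mean of its probe sets, against -0.06 on the brightest, and with any 1 array left out Nrp2 ran from -0.16 to 0.14, Plxnb2 from -0.59 to 0.06, Plxnc1 from -0.26 to 0.20 and Sema4d from -0.23 to 0.37. Plxnd1 (0.16 to 0.79), Sema4a (0.03 to 0.72) and Sema4b (0.34 to 1.10) stayed positive in 15 of 15.

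Counts of genes called by limma moved more. The 6 higher and 10 lower genes became 25 and 39 with the offset, 14 and 20 among genes above background on at least 3 arrays, 12 and 18 with every probe set as its own feature, 39 and 65 with a variance trend and robust fitting, 27 and 44 with array weights, and 17 and 19 at an adjusted p under 0.1. With the replicate block they were 0 and 0 (879 and 1050 at an unadjusted p under 0.05), and without both arrays numbered 1 also 0 and 0 (995 and 1323). With 1 array left out, 1 gene was higher and 1 to 2 were lower. The values showed no pairing by the numbers in the titles. Deviations from the group means of same-numbered arrays correlated across genes at -0.01, -0.09 and 0.04, and not every array correlated best with its own number. Such values cannot tell whether same-numbered arrays were handled together. By construction, fewer arrays and the replicate block leave fewer degrees of freedom, and the looser threshold cannot call fewer genes. For the other changes the cause was not tested. Of the 61 pathway genes, 0 passed in the fit reported and in 11 of 17 alternatives. The others gave 1 with median centring (Dpysl2), 1 above background on at least 3 arrays (Dpysl2), 1 at an adjusted p under 0.1 (Dpysl2), 2 with the offset and 2 with the trend (Dpysl2 and Vegfa), and 3 with array weights (with Mical2). Signal near background limits Nrp1 in Runx1-KO, Plxnb2 and all of Plxna1.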
